A study of Mus musculus with 38 samples.

Results

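The Timm and Tomm genes encode the translocases through which nuclear-encoded proteins enter mitochondria. All protein-coding rows of the polysome table whose symbol begins with Timm or Tomm followed by a number, together with Timmdc1, were taken, which gave 26 of the 23125 genes. RNA was sequenced from the polysome and the non-polysome part of sucrose gradients, with 3 libraries for each of 6 stages of wild-type mouse oocytes and embryos from ICR mice by the study's methods. Of 10 gradient fractions, the heavier 5 were pooled as polysomes and the lighter 5 as non-polysomes, after cycloheximide had been used to hold ribosomes on the mRNA. Fully grown oocytes at the germinal vesicle stage (GV) stand for meiotic interphase, and oocytes matured in culture to metaphase of the second division (MII) stand for meiotic M-phase. Zygotes with pronuclei and two-cell embryos stand for the first and second mitotic interphase. Embryos of both kinds in M-phase (zygote M and two-cell M) were obtained with nocodazole, which blocks spindle assembly, so that mitotic M-phase and the drug cannot be told apart, whereas MII oocytes are described without it. The labels tag both groups of M-phase embryos as meiotic, and here they are named by their titles and by the study's methods. Of the 38 samples, 2 from zygotes had no column in the table and were not analysed here. The females were hormone-stimulated, oocyte donors were at least 6 weeks old, and zygotes were recovered after mating and grown in culture to the two-cell stage. The number of oocytes or embryos per library is not given in the sources used here.

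Levels are given as deposited in FPKM, fragment counts scaled by transcript length and by the size of the library, and 0.01 is the value of a gene listed at 0. FPKM is a share of the RNA of a library, so that fewer cells and less RNA per cell cannot be told apart, nor can a change in one transcript and an opposite change in the rest. Library depth, estimated from the whole-fragment steps of low values, ranged from 8490000 to 26700000 fragments, and 1 fragment on a transcript of 1 kb was worth 0.0375 to 0.118 FPKM. Summed FPKM of 6 oocyte markers (Zp3, Gdf9, Bmp15, Zar1, Oosp1, Nlrp5) in polysomes was 2431 to 2752 in GV and 13.9 to 90.0 in two-cell M. The 8 cumulus and granulosa cell markers measured summed to at most 4.74 FPKM in every polysome library, and to at most 23.6 in non-polysomes of MII and 20.1 in those of two-cell embryos. Of 5 genes of two-cell genome activation, 5 exceeded 1 FPKM in all polysome libraries of two-cell embryos and 0 did so in all of two-cell M. The summed level of these genes was 176 to 323 FPKM in polysomes of GV, 115 to 184 in those of two-cell embryos and 9.24 to 124 in those of two-cell M. The share of these differences in the results below was not tested.

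A precursor protein made in the cytosol is recognised at the outer membrane by receptors of the TOM complex (TOMM20, TOMM22, TOMM70) and passes through the TOMM40 channel, which the small subunits TOMM5, TOMM6 and TOMM7 stabilise. Precursors with a cleavable presequence go on through the TIM23 complex to the matrix, whereas carrier proteins are escorted by small Tim chaperones to the TIM22 complex and inserted into the inner membrane. The embryo takes its mitochondria from the oocyte, and stored maternal mRNA is translated in M-phase partly under the control of cytoplasmic polyadenylation elements in the 3′ end of the mRNA.

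Because this control acts through sequence, the last 150 bases of the 3′ UTR were read for the letters TTTTAT and TTTTAAT on the mRNA strand, in 1 principal transcript per gene (GENCODE M21, GRCm38). Of 25 members with a tail of this length, 7 held such letters (28%), close to 25.1% among the genes tested (1415 of 5642). These members were Tomm70a, Tomm5, Tomm6, Timm23, Timm29, Timm8b and Tomm34. The windows of those that the results below turn on are shown with the element in capitals, and a match in letters is a description and not a shown site of control.
Tomm5, chr4:45105217-45105246, minus strand: cacagtctatatTTTTAATaaacattctga
Tomm6, chr17:47686714-47686743, minus strand: aaaagacaggtaTTTTATtcttttaataag
Timm23, chr14:32180249-32180278, minus strand: tcaggccatactTTTTATtaccatgttaat
Timm8b, chr9:50605243-50605272, plus strand: tcaaaagtgaaaTTTTATttatgggaattc
Tomm34, chr2:164053570-164053599, minus strand: taattgaactgaTTTTATtgaagtgtgtgt
In Tomm5 the element lay 20 bases from the end and overlapped the polyadenylation signal, whereas in the other 4 it lay 42 to 99 bases from the end. Tomm6 held a TTTTAAT as well, inside the window shown.

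The family was unevenly expressed. Averaged over all 36 libraries, Timm8b (57.7 FPKM) and Timm13 (53.2), both small Tim chaperones, had the highest levels, followed by Timm8a2 (28.5) and Timm50 (23.1). The order changed with the stage, with Timm8a2 highest in polysomes of GV (121, where Timm13 had 9.23), Timm13 (129) and Timm50 (85) above Timm8b (29.5) in those of MII, and Tomm5 highest in those of two-cell M. At the other end Tomm20l was listed at 0 in 34 of 36 libraries, Tomm40l in 22 and Timm22 in 15, while Tomm70a had a mean of 0.0995 FPKM. These 4 members did not reach the minimum of 0.1 FPKM (geometric mean over the libraries), and 22 members were tested. Within pairs of related genes, Tomm40 (3.17) was measured above Tomm40l (0.470), Timm8a2 (28.5) above Timm8a1 (2.52) and Timm17a (10.8) above Timm17b (6.61), all as mean FPKM over all libraries. The order of the Timm17 and Timm8a genes changed with the stage. The mean of Timm8a1 was above that of Timm8a2 in non-polysomes of two-cell M (8.71 against 6.84). The mean of Timm17b was above that of Timm17a in GV (polysomes 6.53 against 2.30, non-polysomes 9.84 against 1.14) and in polysomes of zygote M (3.46 against 1.81) and two-cell embryos (3.97 against 3.22).

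**Figure D1:**
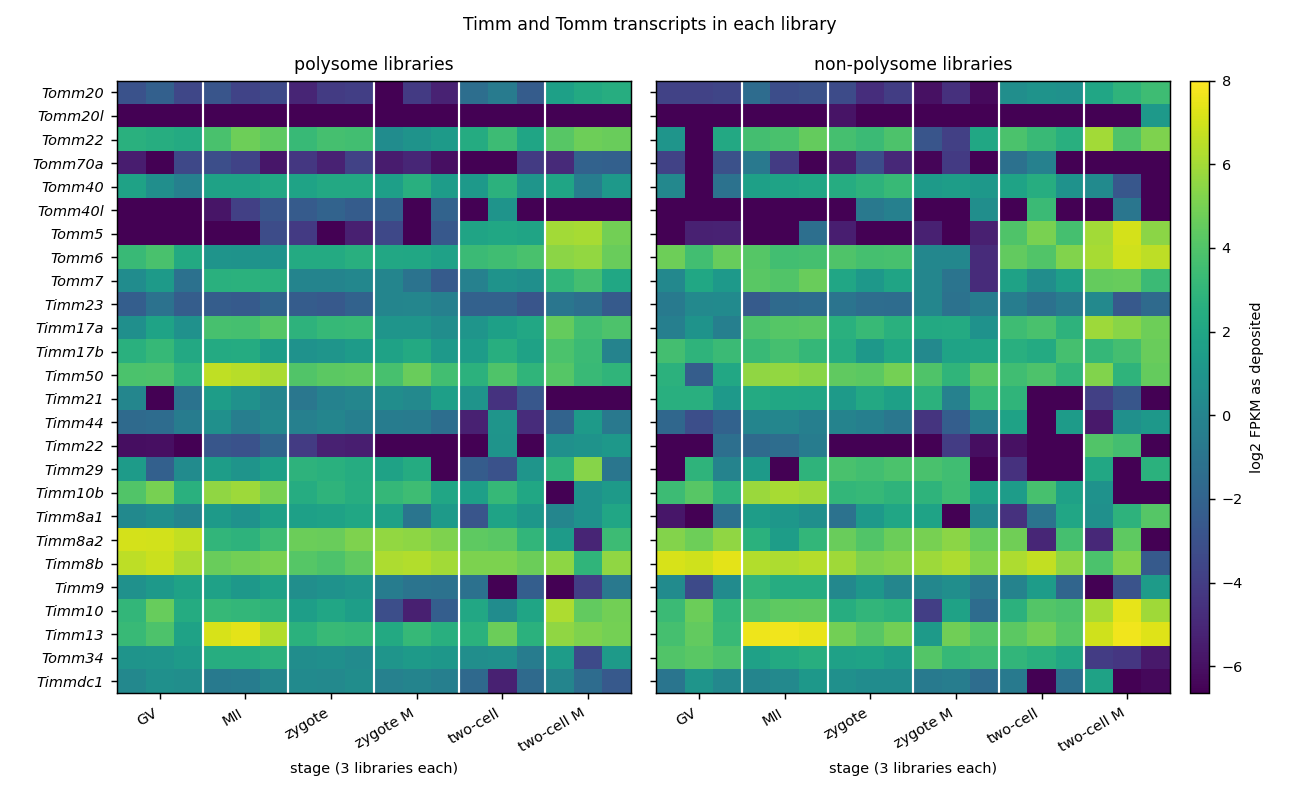
Level of each of the 26 Timm and Tomm genes (rows) in each library (columns, 3 per stage), as log2 of the deposited FPKM, in polysomes (left) and non-polysomes (right). Timm8b, Timm13 and Timm50 have the highest geometric means (41.2, 24.5 and 15.3 FPKM), Tomm5 is near the floor until the two-cell stage, and Tomm20l is at the floor in 34 of 36 libraries.

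Summed over the 26 members, polysomes held 303 ± 76.2 FPKM in GV (SD, n = 3), 376 ± 59.8 in MII, 133 ± 14.3 in zygotes, 174 ± 28.8 in zygote M, 122 ± 35.0 in two-cell embryos and 312 ± 67.5 in two-cell M. The polysome sum was higher in two-cell M (246 to 381) than in two-cell embryos (95.5 to 161) in every library. In non-polysomes the sum was 293 ± 19.9 in GV, 514 ± 9.75 in MII and 633 ± 165 in two-cell M, with means of 171 to 243 at the other stages. The FPKM of all genes did not add up to the same total in every library, and the total was high in two-cell M (122504 to 152254 in polysomes against 98351 to 116552 in two-cell embryos, and at least 207391 in non-polysomes against 127210 to 134610 in GV and 135488 to 149430 in MII). As a share of that total, the members held 0.162 to 0.297% in polysomes of two-cell M against 0.0889 to 0.138% in two-cell embryos, which still did not overlap. In non-polysomes the share was 0.237 to 0.332% in two-cell M, below the 0.35 to 0.372% of MII and overlapping the 0.21 to 0.247% of GV. Libraries of two-cell M also had the fewest genes above 0.1 FPKM (6261 to 7550 in polysomes against 8383 to 9066 in two-cell embryos, and 5140 to 5889 against 6798 to 8037 in non-polysomes), and the part of this in the members' levels was not tested. The members took turns in this sum. The highest polysome mean was in two-cell M for 11 members, in MII for 6, in GV for 3, in zygotes for 2, in zygote M for 2 and in two-cell embryos for 1, and Tomm20l was listed at 0 in every polysome library. A stage effect in polysomes passed the test for 13 of 22 members (moderated F-test of limma, adjusted p under 0.05) against 62.9% of all genes tested, and in non-polysomes for 19 of 22 against 78.3%.

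To follow the cell cycle, each M-phase was compared with its interphase in polysomes. Calls came from a limma fit of log2 FPKM to all 36 libraries and needed an adjusted p (Benjamini-Hochberg over the 7967 genes tested) under 0.05 with a difference of more than 2-fold. In MII against GV, 3 of 22 members were called, all of them higher, against 6.11% of the genes tested (3.36% upward, 2.75% downward). In zygote M against zygote, 1 member was called higher and 2 lower, against 5.75% of the genes tested (3.24% upward, 2.51% downward). From two-cell to two-cell M, 6 members were called higher and 2 lower, against 36.3% of the genes tested (8.13% upward, 28.1% downward). The median log2 difference in this last step was 1.21 for the members and -1.17 for all genes tested. After quantile normalization, which gives every library the same distribution, the median of all genes moved to 0.22 and that of the members to 1.87, with 9 members called higher and 0 lower. Of all 7967 genes tested, 2972 were called after that normalization, 1482 of them higher. In MII against GV the same normalization gave 4 members higher and 3 lower, with 1545 of all genes tested called, 701 of them higher.

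**Figure D2:**
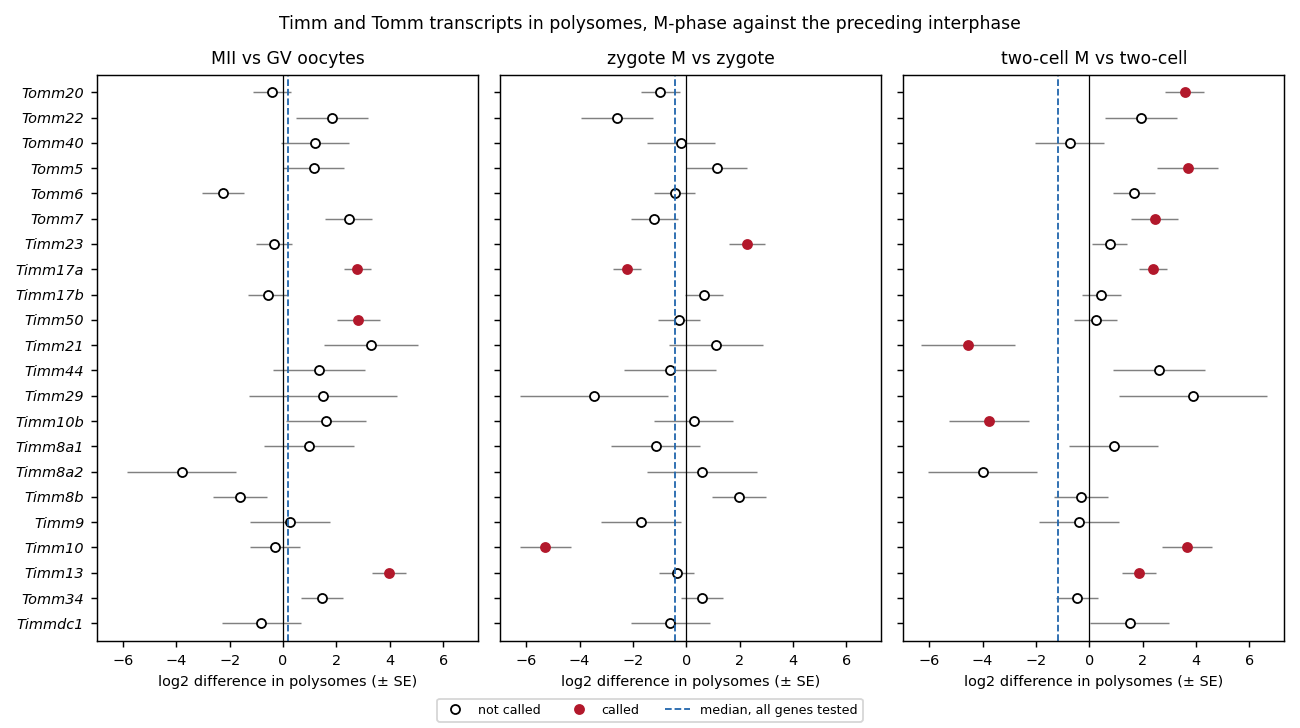
Log2 difference in polysome FPKM between each M-phase and its interphase for the 22 tested members (points, limma estimates; bars, standard errors), with calls filled. The dashed line is the median of all genes tested, at 0.18, -0.43 and -1.17 from left to right, and the called members of the right panel lie above it except Timm21 and Timm10b. Timm21 was listed at 0 in all 3 two-cell M libraries.

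Among the receptors, Tomm20 (chr8:126930667-126945845, minus strand), which binds presequences, was almost absent before genome activation. In polysomes it measured 0.127, 0.229 and 0.0851 FPKM in GV, 0.143, 0.0773 and 0.0939 in MII, 0.029, 0.0583 and 0.065 in zygotes and 0.01, 0.0569 and 0.026 in zygote M. Two-cell embryos had 0.387, 0.690 and 0.191 FPKM, and two-cell M had 3.25, 4.75 and 5.56. The libraries of two-cell M were all above those of two-cell embryos, and the level rose by 3.57 ± 0.73 (log2, standard error) with an adjusted p of 0.000391. On its longest annotated transcript of 4902 bases, 1 fragment is worth 0.00764 to 0.024 FPKM, so that the levels before the two-cell stage rest on few fragments. Tomm22, the central receptor, measured 14.0, 26.8 and 20.5 FPKM in MII, above 6.33, 5.64 and 4.89 in GV, and 18.3, 26.8 and 25.1 in two-cell M, above 5.21, 10.7 and 3.93 in two-cell embryos. In zygote M it measured 1.40, 1.83 and 2.52 FPKM, below 9.46, 12.7 and 11.7 in zygotes. The groups of Tomm22 did not overlap in any of these steps, yet none was called in the fit of all libraries. Its non-polysome values of 1.98, 0.01 and 4.65 FPKM in GV and 0.145, 0.0695 and 4.23 in zygote M entered the spread used. When only the libraries compared were fitted, Tomm22 was called in all of these steps, with log2 differences of 1.82, -2.59 and 1.94 (MII, zygote M and two-cell M). Of all 7967 genes tested, that setting called 2162, 2635 and 1668 in the same order. With 1 added to each FPKM, Tomm22 was called in these steps as well (log2 1.65, -2.08 and 1.76, adjusted p = 0.00986 to 0.0272). There 1604, 900 and 2140 of all genes tested were called. Tomm70a, the receptor for carrier proteins, stayed at or under 0.240 FPKM in every polysome library. Tomm40, the channel itself, ranged from 0.727 to 6.68 FPKM in polysomes and was called in no M-phase step there.

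The small TOM subunits shared a high level in two-cell M. Tomm5 (chr4:45105208-45108115, minus strand) was listed at 0 in the 3 GV polysome libraries, and in MII it measured 0.01, 0.01 and 0.107 FPKM. Polysomes held 0.0559, 0.01 and 0.0248 FPKM in zygotes, 0.0913, 0.01 and 0.163 in zygote M, 3.69, 4.23 and 3.74 in two-cell embryos and 63.0, 67.7 and 29.3 in two-cell M. The rise from two-cell to two-cell M was 3.69 ± 1.15 (log2, adjusted p = 0.0131), with no overlap between the libraries. Tomm5 reached the minimum of 0.1 FPKM for testing (geometric mean 0.218) only through the two-cell stages. Its calls at these stages are therefore not independent of that filter. They were also made without a filter. Tomm6 (chr17:47686646-47688387, minus strand) measured 43.5, 49.2 and 25.0 FPKM in two-cell M against 10.2, 11.6 and 14.0 in two-cell embryos, a difference of 1.67 ± 0.78 (log2) that was not called (adjusted p = 0.0945). From GV (9.89, 14.0 and 4.81) to MII (1.91, 1.81 and 1.80) its level differed by -2.25 ± 0.78, again without a call (adjusted p = 0.0912), although the libraries did not overlap. Both differences of Tomm6 were called with 0.1 or 1 added to each FPKM, after quantile normalization and with only the libraries compared. Tomm7 (chr5:23838944-23844162, minus strand) measured 7.86, 12.3 and 4.24 FPKM in two-cell M against 0.881, 1.86 and 1.54 in two-cell embryos. It rose by 2.45 ± 0.88 (log2, adjusted p = 0.0315), a call that was lost without any one of two-cell A, two-cell C, two-cell M A or two-cell M B (log2 2.08 to 2.54, adjusted p = 0.0565 to 0.113) and without a filter on low values (adjusted p = 0.0512). In MII, with 6.30, 6.60 and 6.18 FPKM, Tomm7 was also above every GV library (1.39, 2.56 and 0.443), without a call (adjusted p = 0.108), and was called under the same 4 alternatives as Tomm6. In zygotes Tomm7 measured 0.957, 0.983 and 1.09 FPKM and in zygote M 1.01, 0.474 and 0.181.

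Of the TIM23 complex, Timm17a (chr1:135295213-135313779, minus strand), which forms the translocation path together with TIMM23, changed in all of the M-phase steps. It rose from 1.55, 3.67 and 1.67 FPKM in GV polysomes to 13.5, 12.8 and 17.9 in MII, by 2.78 ± 0.52 (log2, adjusted p = 0.000697). From zygotes (7.02, 8.83 and 9.16 FPKM) to zygote M (2.02, 1.99 and 1.43) it fell by 2.21 ± 0.52 on the log2 scale (adjusted p = 0.00678). It rose once more from 2.01, 3.22 and 4.43 FPKM in two-cell embryos to 23.4, 11.7 and 14.8 in two-cell M, by 2.38 ± 0.52 (log2, adjusted p = 0.000721). The libraries did not overlap in any step, and each of these calls of Timm17a held under every alternative run. Its paralog Timm17b was called in none of them, with 6.16, 8.90 and 4.52 FPKM in GV, 4.99, 5.15 and 2.88 in MII and 14.6, 10.0 and 0.951 in two-cell M. Timm23 (chr14:32180162-32201899, minus strand), the channel subunit, rose in zygote M (1.03, 1.07 and 0.835 FPKM) over zygotes (0.194, 0.169 and 0.247), by 2.27 ± 0.67 (log2, adjusted p = 0.0396). The libraries of Timm23 did not overlap, but the call was lost when any 1 of the 6 libraries was left out (adjusted p = 0.079 to 0.156) and with the replicate letter as a block (adjusted p = 0.104), and with 1 added to each FPKM the difference was 0.71, under the 2-fold limit. A snoRNA gene, Gm23946, shares 198 bases with Timm23 on the same strand and had a mean of 1.52 FPKM, above the 0.494 of Timm23.

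Timm50 (chr7:28305516-28312073, minus strand), the receptor of TIM23 on the intermembrane side, measured 97.6, 86.7 and 70.6 FPKM in MII polysomes against 14.4, 15.2 and 7.78 in GV. It rose by 2.82 ± 0.80 (log2, adjusted p = 0.0300). The groups were far apart, but the call was lost when any 1 of the 6 libraries was left out (log2 2.51 to 2.99, adjusted p = 0.0612 to 0.116). At the other stages Timm50 measured 6.80 to 24.9 FPKM in polysomes. Timm21, which links TIM23 to the respiratory chain, was listed at 0 in all 3 two-cell M polysome libraries and measured 1.91, 0.0437 and 0.158 FPKM in two-cell embryos. The test called it lower (adjusted p = 0.0432), no fold is given against a group listed at 0, and the call was lost under 5 of 7 alternatives (0.1 or 1 added, no filter, quantile normalization and only the libraries compared, adjusted p = 0.0712 to 0.501) and in 5 of the 6 fits that left out a library, among them those without two-cell A (adjusted p = 0.237), two-cell C (0.067) and each two-cell M library. Fbxo15 lies opposite to Timm21 over its whole length of 4232 bases and had a mean of 1.19 FPKM, and the strand of the reads is not stated. Timm44, which ties the matrix motor to the channel, ranged from 0.0251 to 2.5 FPKM in polysomes and was called in no step.

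In the TIM22 branch, Timm10b (chr7:105640056-105643638, plus strand), which docks the small Tim chaperones on TIM22, measured 0.01, 1.77 and 2.54 FPKM in two-cell M against 3.11, 8.84 and 4.15 in two-cell embryos. It fell by 3.77 ± 1.49 on the log2 scale (adjusted p = 0.0483). Without the two-cell M library A, which was listed at 0, the difference was -1.19 (adjusted p = 0.515), and the call was also lost without any of the 3 two-cell libraries (adjusted p = 0.070 to 0.136) and under 4 of 7 alternatives (no filter, quantile normalization, only the libraries compared and the letter as a block, adjusted p = 0.0559 to 0.256). Its highest polysome level was in MII, with 47.1, 57.5 and 33.5 FPKM. Timm22, the channel of this branch, was at or under 0.263 FPKM in all polysome libraries except 1 of two-cell embryos (1.92) and the 3 of two-cell M (1.62, 1.82 and 2.24). Timm29, another subunit, measured 7.32, 40.3 and 0.537 FPKM in two-cell M and was called in no polysome comparison.

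Of the small Tim chaperones, which carry hydrophobic precursors across the intermembrane space, Timm13 and Timm10 were called in M-phase steps of polysomes and Timm8a1, Timm8a2, Timm8b and Timm9 were not. Timm13 (chr10:80899450-80900970, minus strand) rose from 9.43, 14.8 and 3.51 FPKM in GV to 140, 166 and 80.5 in MII, by 3.97 ± 0.65 (log2, adjusted p = 0.000148), the largest difference called among the members in that step. It measured 6.66, 9.30 and 8.55 FPKM in zygotes and 4.70, 8.97 and 5.98 in zygote M. In two-cell M, with 48.0, 36.6 and 30.3 FPKM against 6.50, 25.7 and 6.59 in two-cell embryos, Timm13 rose by 1.86 ± 0.65 (log2, adjusted p = 0.0260). That call was lost without any one of two-cell A, two-cell C, two-cell M A or two-cell M B (log2 1.53 to 1.88, adjusted p = 0.0540 to 0.115), and with only the libraries compared (adjusted p = 0.0876). Timm10 (chr2:84826997-84830214, plus strand), a partner of TIMM9 in the carrier chaperone, did not differ detectably between GV (8.27, 24.4 and 5.14) and MII (9.02, 8.41 and 7.25). From zygotes (2.90, 4.03 and 2.94 FPKM) to zygote M (0.113, 0.0247 and 0.211) Timm10 fell by 5.28 ± 0.94 on the log2 scale (adjusted p = 0.000366). One fragment on a Timm10 transcript is worth 0.0543 to 0.209 FPKM, so that the zygote M values lie near that of 1 fragment. With 1 added to each FPKM, the difference was -1.94 (log2, adjusted p = 0.0149) and was called as well. Without zygote M B, the lowest library, the difference was -4.40. From two-cell embryos (4.41, 1.40 and 3.95) to two-cell M (74.3, 22.3 and 29.4) Timm10 rose by 3.65 ± 0.94 (log2, adjusted p = 0.00328). The groups did not overlap in either mitotic step.

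Timm8a2 and Timm8b had their highest polysome levels in GV. Timm8a2 (chr14:122034674-122038421, plus strand), a paralog of Timm8a1, whose product pairs with TIMM13, measured 133, 128 and 101 FPKM in GV and 8.11, 6.94 and 11.1 in MII. The libraries did not overlap, but the difference of -3.81 ± 2.05 (log2) was not called (adjusted p = 0.342). Its values in two-cell and two-cell M libraries of both fractions, all part of the fit, ran from 0.01 to 28.0 FPKM. Timm8a2 was called in MII against GV with only the libraries compared, with 1 added to each FPKM and after quantile normalization. Timm8b (chr9:50603910-50605321, plus strand) measured 94.8, 112 and 69.4 FPKM in GV, 25.1, 30 and 33.4 in MII, 17.6, 15.0 and 21.7 in zygotes and 74.4, 78.1 and 61.5 in zygote M. Between zygotes and zygote M the libraries of Timm8b did not overlap, and the log2 difference of 1.99 ± 1.02 was not called (adjusted p = 0.347). Both this difference and that of MII against GV (-1.62 ± 1.02, adjusted p = 0.437) were called with only the libraries compared. Timm9 stayed between 0.463 and 3.46 FPKM in GV to zygote M polysomes and between 0.01 and 0.616 in the two-cell stages. Its zygote M libraries (0.463 to 0.702) lay below those of zygotes (1.48 to 2.10). That difference was called with only the libraries compared (log2 -1.70, adjusted p = 0.00704). In polysomes Timm8a1 ranged from 0.143 to 4.16 FPKM and was called in no step. Timmdc1, an assembly factor of respiratory complex I from the same protein family, ranged from 0.0257 to 1.62 FPKM in polysomes and was called in no pairwise comparison of the main fit. Its GV libraries (1.15 to 1.62) lay above those of two-cell embryos (0.0257 to 0.331). That difference was called with 0.1 added to each FPKM (log2 2.41, adjusted p = 0.0428).

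**Figure D3:**
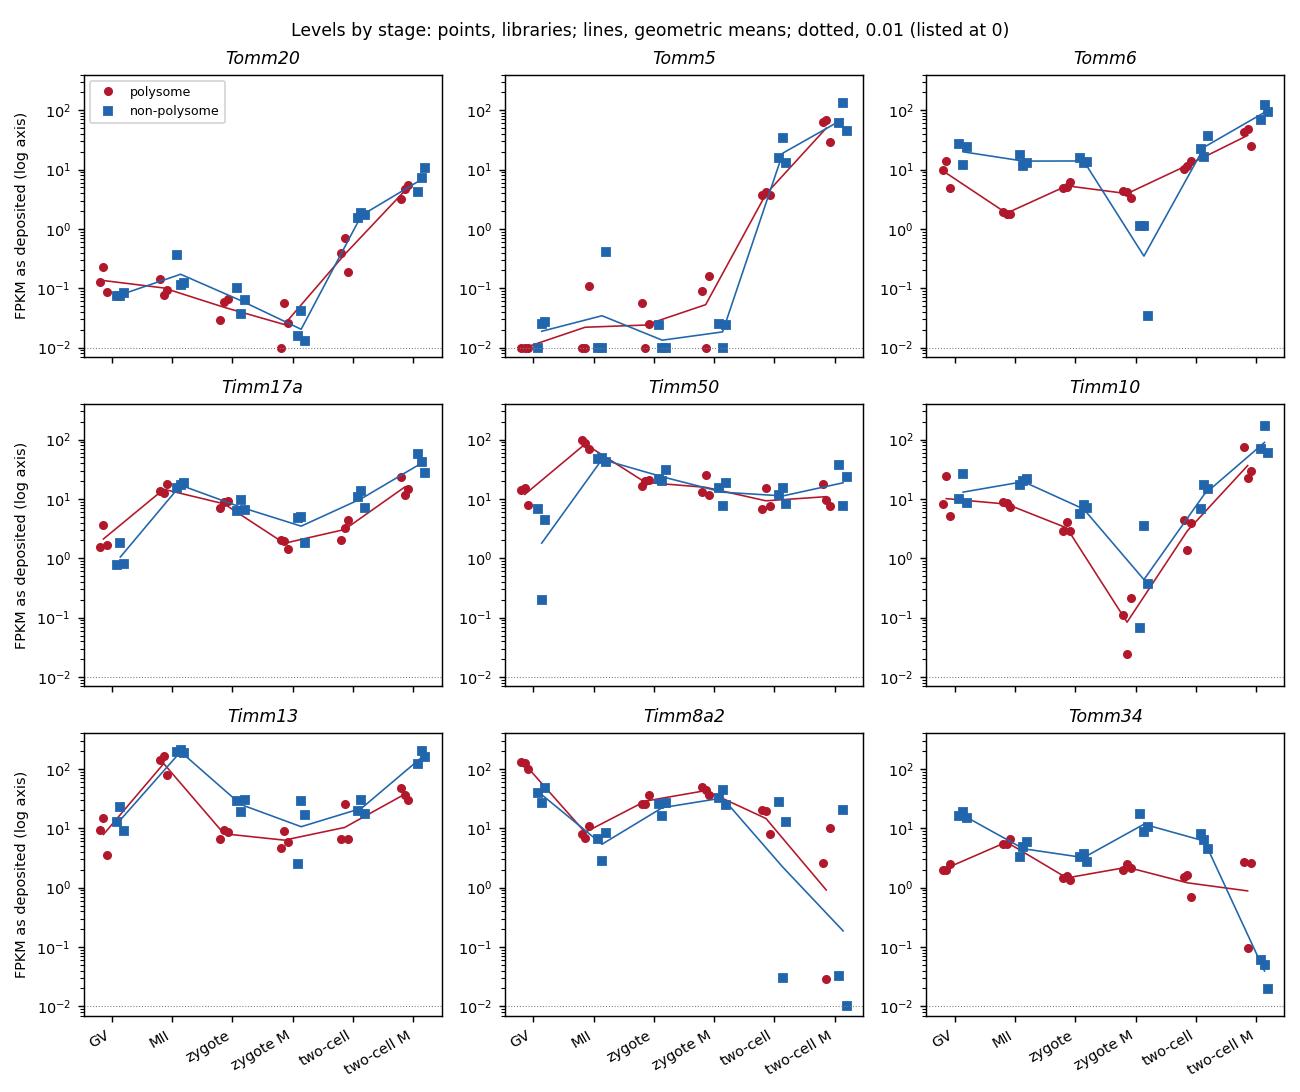
FPKM as deposited (log axis) of 9 members at the 6 stages, with each point 1 library, red for polysomes and blue for non-polysomes, lines joining geometric means and the dotted line at 0.01 (listed at 0). Timm13 and Timm50 peak in MII, Timm10 has its lowest values in zygote M, Tomm5 and Tomm20 have their highest values in two-cell M, and the mean of Tomm34 is higher in polysomes than in non-polysomes in MII and two-cell M and lower at the other stages.

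The differences between these steps were tested as contrasts in the same fit, which were added after the data had been seen. The change from GV to MII exceeded that from zygote to zygote M for Timm17a (by 4.99 ± 0.73, adjusted p = 2.04e-05), Timm10 (by 4.97 ± 1.33, adjusted p = 0.0143) and Timm13 (by 4.32 ± 0.92, adjusted p = 0.00196), all on the log2 scale, against 9.51% of the genes tested (5.06% upward, 4.46% downward). It was below that from two-cell to two-cell M for Tomm20 (difference -3.99 ± 1.03), Tomm6 (-3.92 ± 1.10) and Timm10 (-3.96 ± 1.33), and above it for Timm21 (listed at 0 in two-cell M, adjusted p = 0.0218), against 23.5% of the genes tested (18.7% upward, 4.83% downward). The change in the first mitosis was below that in the second for Tomm20 (-4.54 ± 1.03), Tomm7 (-3.64 ± 1.25), Timm17a (-4.59 ± 0.73) and Timm10 (-8.93 ± 1.33), against 23.7% of the genes tested (16.8% upward, 6.87% downward). After quantile normalization 6 members were above and 3 below in the first of these contrasts, 2 above and 6 below in the second, and 0 above and 5 below in the third. Over all genes tested, that normalization gave 1957 calls (872 above), 2419 (1158 above) and 2356 (1268 above). All of these contrasts share libraries with each other. Some of these calls were lost when a library was left out. Timm10 lost its call between the first 2 steps without zygote M B (log2 4.09, adjusted p = 0.0634), and between the steps to MII and two-cell M without GV B, MII B, MII C, two-cell B or two-cell M A (log2 -3.98 to -3.32, adjusted p = 0.0507 to 0.0951). Without zygote M B the last difference of Timm10 was -8.05, and without zygote M A that of Tomm20 was -3.89, with the calls kept. Timm21, with 1.07, 0.01 and 0.487 FPKM in GV, lost its call without GV B (5.79 in place of 7.85, adjusted p = 0.095) or two-cell A (6.34, adjusted p = 0.0804), and with 0.1 or 1 added to each FPKM (0.0617 and 0.188). Tomm7 lost its call without any zygote library, zygote M B or C, two-cell A, or two-cell M A or B (log2 -3.69 to -2.99, adjusted p = 0.0542 to 0.105), and without a filter on low values (adjusted p = 0.0569). Timm10 also lost its first call with 1 added to each FPKM (log2 1.64, adjusted p = 0.12) and its second without a filter (adjusted p = 0.0525). Members not called in these contrasts were called under 3 or more alternatives, namely Tomm22, Tomm7, Timm50, Timm23, Timm8b and Tomm6 in the first, Tomm5 and Timm10b in the second and Tomm22 in the third.

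Next, polysomes of meiotic and mitotic M-phase were compared directly. In MII against zygote M, 5 members were called higher and 1 lower, against 12.4% of the genes tested (8.95% upward, 3.4% downward). Timm10 was higher in MII by 6.61 ± 0.94 (log2, adjusted p = 1.27e-05), Timm13 by 4.29 ± 0.65 (adjusted p = 3.06e-05), Tomm7 by 3.85 ± 0.88 (adjusted p = 0.00341) and Timm17a by 3.02 ± 0.52 (adjusted p = 0.00014). Timm50 was higher by 2.42 ± 0.80 (adjusted p = 0.0439), a call lost when any 1 of the 6 libraries was left out (adjusted p = 0.0547 to 0.14) and without a filter on low values (0.0734), and Timm23 differed by -2.21 ± 0.67 with an adjusted p of 0.0273, a call lost in the 5 fits without MII A, MII B or any zygote M library (adjusted p = 0.0566 to 0.101) and with 1 added to each FPKM, where the difference was -0.70. Timm23 measured 0.2, 0.174 and 0.268 FPKM in MII, below every zygote M library. Without zygote M B the difference of Timm10 was 5.73, and without zygote M C that of Tomm7 was 3.20, with the calls kept. Timm50 measured 13.2, 24.9 and 11.8 FPKM in zygote M, below every MII library. After quantile normalization 6 members were called higher and 2 lower in MII against zygote M, and 9 members were called with 1 added to each FPKM and 13 with only the libraries compared. Of all genes tested, 2082 were called in the first setting (1014 higher), 1776 in the second and 3235 in the third. Tomm22, whose libraries in MII and zygote M do not overlap, was not called (3.40 ± 1.35, adjusted p = 0.106) and was called under 4 alternatives (log2 2.85 to 3.40, adjusted p = 0.000216 to 0.0459). Timm10b, with 8.56, 10.9 and 4.09 FPKM in zygote M, was not called either (2.63 ± 1.49, adjusted p = 0.301) and was called under 3 (log2 2.46 to 2.63, adjusted p = 0.00122 to 0.0482). In MII against two-cell M, 6 members were called higher and 3 lower, against 53% of the genes tested (45.2% upward, 7.86% downward) and the median of all genes was 2.64. The 3 lower in MII were Tomm20 (-5.45 ± 0.73, adjusted p = 7.83e-07), Tomm5 (-11.15 ± 1.15, adjusted p = 9.04e-09) and Tomm6 (-4.36 ± 0.78, adjusted p = 4.24e-05), on the log2 scale. Since 2 of 3 MII libraries list Tomm5 at 0, its fitted difference depends on the 0.01 in the table. Tomm5 also entered the test only through its levels in the two-cell stages. The 6 higher in MII were Timm50 (2.95 ± 0.80, adjusted p = 0.00306), Timm10b (6.98 ± 1.49, adjusted p = 0.000329), Timm9 (5.28 ± 1.49, adjusted p = 0.0042), Timm13, Tomm34 and Timm21, which is listed at 0 in two-cell M. Without two-cell M library A, in which both are listed at 0, the difference of Timm10b was 4.40 (adjusted p = 0.00641) and that of Timm9 3.84 (adjusted p = 0.0475), so that the larger values rest on that library. Timm9 measured 3.32, 2.23 and 3.27 FPKM in MII and 0.01, 0.0665 and 0.616 in two-cell M, Timm50 18, 9.68 and 7.52 in two-cell M, Tomm34 5.51, 5.47 and 6.68 in MII, and Timm21 2.80, 1.72 and 1.0 in MII. The libraries of these members did not overlap between MII and two-cell M. After quantile normalization 4 members were called higher and 5 lower in this comparison, and Timm13 (log2 1.19, adjusted p = 0.12) and Tomm34 (1.28, adjusted p = 0.101) were not among them. Over all genes tested, 3643 were called there after that normalization, 1835 of them higher. Timm13 also lost its call without MII A, MII B, two-cell M B or two-cell M C (log2 1.5 to 1.69, adjusted p = 0.0586 to 0.0967), and Tomm34 lost its call without two-cell M B (log2 1.14, adjusted p = 0.0935) and with only the libraries compared (adjusted p = 0.147). Timm10 was called lower in MII under 4 alternatives (log2 -3.07 to -2.03, adjusted p = 0.00261 to 0.0195).

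Oocyte and embryo interphase were compared next. In GV against zygote, 0 members were called higher and 1 lower, against 5.61% of the genes tested (3.88% upward, 1.73% downward). It was Timm17a, lower in GV with a log2 difference of -1.97 ± 0.52 (adjusted p = 0.0197), a call lost without GV A, GV C, zygote C or zygote D (adjusted p = 0.0651 to 0.112). Timm8a2 (101 to 133 FPKM in GV against 25.3 to 36 in zygotes) and Timm8b (69.4 to 112 against 15.0 to 21.7) did not overlap and were not called, with log2 differences of 2.06 ± 2.05 and 2.34 ± 1.02 (adjusted p = 0.704 and 0.221). With only the libraries compared 6 members were called, namely Timm17a, Timm8a2 (adjusted p = 0.00277), Timm8b (0.00274), Timm17b (1.58, 0.0159), Timm8a1 (-1.54, 0.0114) and Tomm22 (log2 of about -1, 0.0195). In that setting 2466 of all 7967 genes tested were called, 1338 of them higher. Timm8b was also called with 1 added and after quantile normalization. In GV against two-cell, Timm8a2 was called higher with 1 added and with only the libraries compared (2.94 and 3.03, adjusted p = 0.0173 and 0.00537). In GV against two-cell, 1 member was called higher and 1 lower, against 16.7% of the genes tested (12.3% upward, 4.39% downward). Tomm5, listed at 0 in GV, was called lower there (adjusted p = 4.42e-06), with at least 3.69 FPKM in every two-cell polysome library. Tomm5 entered the test only through the two-cell stages. After quantile normalization 1 member was called higher and 1 lower in GV against zygote, and 1 higher and 2 lower in GV against two-cell. Over all genes tested, 1410 (763 higher) and 2056 (1033 higher) were then called. Timm9 was higher in GV (1.73, 2.37 and 3.46 FPKM) than in two-cell embryos (0.433, 0.01 and 0.211), by 4.64 ± 1.49 (log2, adjusted p = 0.0316). Its call was lost without any GV library or without two-cell B, the library listed at 0 (log2 3.0 without it, adjusted p = 0.22), and with only the libraries compared (adjusted p = 0.0582).

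In the non-polysome fraction the same M-phase steps were compared, to set the polysome changes beside those of RNA that carried few or no ribosomes. In MII against GV, 7 members were called higher and 0 lower, against 16.6% of the genes tested (13.5% upward, 3.14% downward). They included Timm13 (197, 206 and 184 FPKM in MII against 12.7, 22.7 and 9.18 in GV), Timm50 (47.2, 49.6 and 42.6 against 6.82, 0.196 and 4.37) and Timm17a (15.3, 17.3 and 18.8 against 0.785, 1.81 and 0.814), the 3 members that rose in polysomes. Tomm34 was called lower under 4 alternatives (log2 -2.50 to -1.66, adjusted p = 0.000431 to 0.0308). The other members called higher were Tomm22, Tomm40, Tomm7 and Timm8a1. Without GV library B, in which Tomm22 and Tomm40 were listed at 0, Tomm22 (log2 2.38, adjusted p = 0.139) and Tomm40 (log2 2.29, adjusted p = 0.241) lost their calls, as did Timm8a1 (log2 4.58, adjusted p = 0.131), and Timm50 kept its call (log2 3.09). Timm8a1 was also lost without GV A, MII A or MII B (adjusted p = 0.0554 to 0.0791), Tomm40 without MII B or C (0.0504 and 0.0564) and Tomm7 without GV A or MII C (0.072 and 0.0544). In zygote M against zygote, 0 members were called higher and 4 lower, against 10.4% of the genes tested (1.05% upward, 9.36% downward). These were Tomm22, Tomm6, Tomm7 and Timm10, of which Timm10 was also called lower in polysomes and the other 3 were not. Tomm34 was called higher with 1 added, after quantile normalization and with only the libraries compared (log2 1.60 to 2.57, adjusted p = 0.00193 to 0.0254). Calls were lost for Tomm22 without zygote D, zygote M A or zygote M B (adjusted p = 0.0514 to 0.0872), for Timm10 without zygote M A (0.074) and for Tomm7 without zygote M C (0.0769). In two-cell M against two-cell, 5 members were called higher and 4 lower, against 36.1% of the genes tested (8.17% upward, 28% downward). Tomm20, Tomm7, Timm17a, Timm10 and Timm13 were higher, as in polysomes. Tomm5 (15.9, 33.5 and 12.8 FPKM in two-cell embryos, 61.8, 131 and 44.3 in two-cell M) and Tomm6 (22.7, 16.1 and 37.5, then 68, 124 and 92.2) did not overlap either and were not called (1.91 ± 1.15, adjusted p = 0.208, and 1.94 ± 0.78, adjusted p = 0.0513). Both were called with 0.1 or 1 added to each FPKM (adjusted p = 6.89e-05 to 0.00972). Tomm40, Timm10b, Timm8b and Tomm34 were lower. Left-out libraries ended the calls of Tomm20 (two-cell A or C, two-cell M B or C, adjusted p = 0.0596 to 0.107), Timm10 (two-cell A or two-cell M B, 0.0692 and 0.0716), Tomm7 (two-cell B, 0.0515) and Tomm40 (two-cell M C, log2 -2.87, 0.0659). The difference of Timm8b was -3.93 (adjusted p = 0.00322) and -1.57 without two-cell M C (adjusted p = 0.0251). With only the libraries compared, calls were lost for Tomm22 and Tomm40 in MII, for all 4 members in zygote M, and for Tomm20, Tomm40, Timm17a, Timm10b and Timm8b in two-cell M (adjusted p = 0.0554 to 0.318). Timm8a1 in MII was lost with 1 added to each FPKM (adjusted p = 0.0785) and Tomm40 in two-cell M after quantile normalization (0.0942). After quantile normalization, 7 members were higher and 2 lower in non-polysomes of MII, 2 higher and 4 lower in those of zygote M, and 5 higher and 3 lower in those of two-cell M. Calls over all genes tested were then 2121 (1046 higher), 1106 (601 higher) and 2021 (940 higher). Timm10 measured 69.1, 173 and 60.4 FPKM in non-polysomes of two-cell M against 6.72, 16.9 and 15.0 in two-cell embryos, and Timm13 122, 203 and 156 against 19.7, 30 and 17.4.

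Whether a change in polysomes differed from that in non-polysomes was tested by an interaction contrast. In MII against GV, 0 of 22 members were called in limma, against 0.163% of the genes tested. An unadjusted p under 0.05 was reached by 1 member (4.55%), against 7.37% of the genes tested. That member, Tomm34, was called with 1 added to each FPKM (2.80, adjusted p = 0.00302), after quantile normalization (3.92, adjusted p = 0.0258) and with only the libraries compared (3.34, adjusted p = 0.00698). In zygote M against zygote, 1 member was called, Tomm6, against 0.289% of the genes tested. Non-polysome Tomm6 fell from 16.0, 12.9 and 13.3 FPKM in zygotes to 1.12, 1.10 and 0.0343 in zygote M, with an adjusted p of 3.21e-05, while polysomes held 4.92, 5.03 and 6.13 in zygotes and 4.33, 4.18 and 3.38 in zygote M. The changes differed by 4.89 ± 1.10 (log2, adjusted p = 0.0438), a call that was lost in 9 of 12 fits that left out a library, namely without any 1 of the 6 polysome libraries or the 3 zygote non-polysome libraries (adjusted p = 0.0755 to 0.149). Without zygote M non-polysome C, the lowest library, the difference was 3.21 and the call was kept. The adjusted p was 0.0703 with the gradient as a block, 0.0507 with the letter as a block and 0.105 with only the libraries compared. Tomm6 shares 1649 bases with Gm21981 on the same strand and 778 with Tomm6os on the opposite one, both at or under 0.198 FPKM on average.

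In two-cell M against two-cell, 1 member was called, Tomm34 (chr2:164053540-164071170, minus strand), against 5.75% of the genes tested. TOMM34 is a cytosolic co-chaperone of HSP70 and HSP90 that holds precursors for import. From two-cell embryos (8.13, 6.35 and 4.42 FPKM) to two-cell M (0.0611, 0.0501 and 0.0199), non-polysome Tomm34 fell by 7.28 ± 0.79 on the log2 scale (adjusted p = 2.59e-08). In polysomes it measured 1.54, 1.63 and 0.702 FPKM in two-cell embryos and 2.76, 0.0966 and 2.57 in two-cell M, with no call (adjusted p = 0.686). The changes differed by 6.82 ± 1.12 (log2, adjusted p = 0.000188), and this call held in every fit that left out a library, with a difference of 6.0 without two-cell M polysome A and 6.05 without C. It was lost when only the libraries compared were fitted (adjusted p = 0.162). One fragment on a Tomm34 transcript is worth 0.0163 to 0.0613 FPKM, so that the low values lie near that of 1 fragment, and the non-polysome libraries of two-cell M were among the shallower (8490000 to 17100000 fragments).

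The fractions themselves were then compared within each stage. In GV, 2 members were called, against 4.96% of the genes tested (2.61% upward, 2.35% downward). Timm50 was higher in polysomes (14.4, 15.2 and 7.78 FPKM against 6.82, 0.196 and 4.37), with log2 1.13 and an adjusted p of 0.454 without non-polysome library B, and its call was also lost without any GV polysome library (adjusted p = 0.0616 to 0.152). Tomm34 was lower in polysomes, with 1.95, 1.95 and 2.52 FPKM against 16.2, 18.9 and 14.8 in non-polysomes. Its difference was -2.96 ± 0.79 (log2, adjusted p = 0.0259), and the call was lost without any polysome library or non-polysome A or B (adjusted p = 0.0563 to 0.112) although the libraries lie far apart. With the gradient, which both fractions share, as a block, both GV calls were lost (adjusted p = 0.0649 for Timm50 and 0.0569 for Tomm34), and Timm8a1 was called higher in polysomes (log2 4.85, adjusted p = 0.0307). In MII, 0 members were called in limma, against 0.753% of the genes tested (0.0502% upward, 0.703% downward). An unadjusted p under 0.05 was reached by 1 member (Tomm6, 4.55%), against 6.14% of the genes tested. Tomm6 was called lower in MII polysomes with 0.1 added (log2 -2.85, adjusted p = 0.00938), with 1 added (-2.39, adjusted p = 0.000883), after quantile normalization (-3.17, adjusted p = 0.00725) and with only the libraries compared (-2.92, adjusted p = 0.00439). In that last fit Tomm7, Timm8b and Timm10 were called lower as well (log2 -1.65 to -1.25, adjusted p = 0.00774 to 0.0148), and Tomm7 was also called lower with 1 added. Over all 7967 genes tested, the fit of only the MII libraries called 514, of which 130 were higher and the rest lower (main 60). In zygotes, 0 members were called, against 1.38% of the genes tested (0.0377% upward, 1.34% downward). An unadjusted p under 0.05 was reached by 1 member (Timm13, 4.55%), against 7.38% of the genes tested. With only the libraries compared, 8 members were called lower in zygote polysomes, namely Tomm6, Tomm7, Timm21, Timm29, Timm8b, Timm10, Timm13 and Tomm34 (log2 -2.05 to -1.06, adjusted p = 0.00368 to 0.0153). Over all 7967 genes tested, that fit called 1605, of which 356 were higher and the rest lower. In zygote M, Tomm6 was higher in polysomes (log2 3.50 ± 0.78, adjusted p = 0.0158), against 1.92% of the genes tested (1.43% upward, 0.49% downward). That call was lost without polysome library A or B (adjusted p = 0.0629 and 0.0613), and without non-polysome library C (0.0343 FPKM) the log2 difference was 1.82, with the call kept (adjusted p = 0.049). With only the libraries compared the call of Tomm6 was lost (adjusted p = 0.303). Tomm34 was called lower in zygote M polysomes with 0.1 or 1 added to each FPKM, after quantile normalization and with only the libraries compared (log2 -2.44 to -1.99, adjusted p = 0.00227 to 0.0449).

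**Figure D4:**
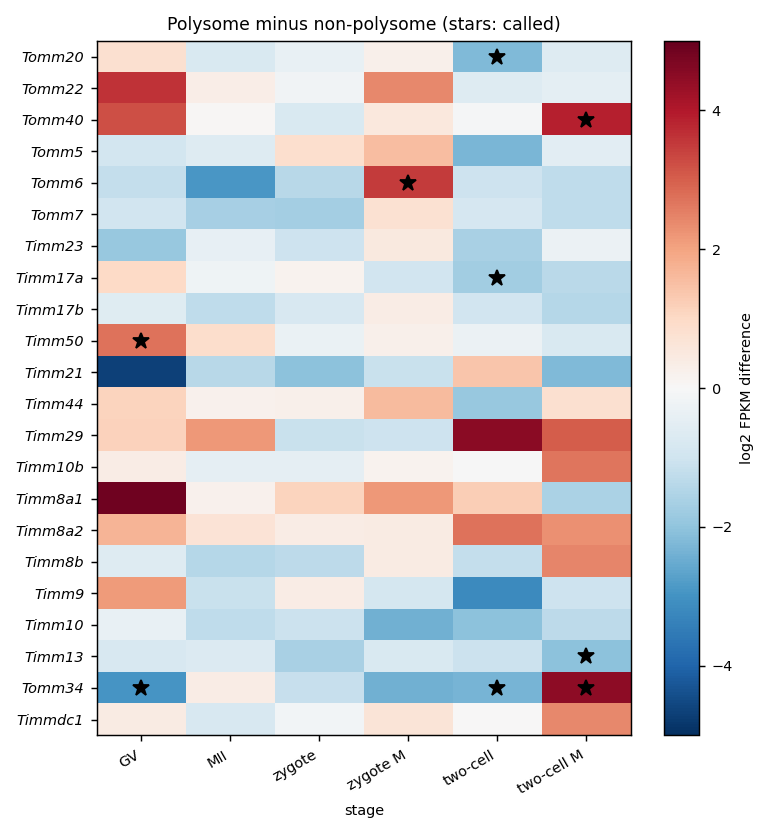
Log2 difference in FPKM between polysomes and non-polysomes for the 22 tested members (rows) at each stage (columns), red where polysomes were higher and blue where they were lower, with stars for the 9 calls. Tomm34 is starred in GV and two-cell embryos on the blue side and in two-cell M on the red side.

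In two-cell embryos, 3 members were called lower in polysomes, namely Tomm20, Timm17a and Tomm34, and 0 higher, against 16.1% of the genes tested (9.69% upward, 6.38% downward). Timm17a measured 2.01, 3.22 and 4.43 FPKM in polysomes against 10.9, 13.8 and 6.97 in non-polysomes, and Tomm20 0.387, 0.690 and 0.191 against 1.53, 1.85 and 1.71. These were calls that left-out libraries often ended. Tomm20 lost its call in 5 of 6 such fits (all but two-cell polysome B, adjusted p = 0.0581 to 0.171), Tomm34 in 5 (all but two-cell non-polysome C, adjusted p = 0.060 to 0.156) and Timm17a without polysome A or non-polysome B (adjusted p = 0.111 and 0.0792). With the gradient as a block Tomm34 lost its call (adjusted p = 0.0683) and Tomm5 was called lower in polysomes (log2 -2.29, adjusted p = 0.0461). Tomm5 was also called lower with 0.1 added (adjusted p = 0.00485), with 1 added (8.21e-05) and with only the libraries compared (0.0455). In two-cell M, 3 members were called, against 14.8% of the genes tested (9.7% upward, 5.06% downward). Tomm40 (3.86, 0.727 and 2.41 FPKM in polysomes against 1.29, 0.16 and 0.01) and Tomm34 (log2 4.49 ± 0.79, adjusted p = 0.0002, and 3.66 or 3.71 without polysome A or C) were higher in polysomes and Timm13 lower (48.0, 36.6 and 30.3 against 122, 203 and 156). Without non-polysome library C, in which it was listed at 0, Tomm40 differed by log2 2.06 (adjusted p = 0.263), and it also lost its call without polysome A, polysome C or non-polysome B (adjusted p = 0.0544 to 0.117). Timm13 lost its call without polysome B or C or non-polysome B or C (adjusted p = 0.0531 to 0.0936). After quantile normalization Tomm34 was not called in two-cell M (log2 1.43, adjusted p = 0.178), nor were Tomm40 (2.42, adjusted p = 0.141) and Timm13 (-0.84, adjusted p = 0.473), and in two-cell embryos Timm17a was not (-1.23, adjusted p = 0.119). With only the libraries compared, Tomm34 in GV was the one of the 9 fraction calls that held. Without a filter on low values, Timm50 in GV, Tomm20 and Tomm34 in two-cell embryos and Tomm40 and Timm13 in two-cell M were not called (adjusted p = 0.0537 to 0.0729). With 1 added to each FPKM, Tomm20 (-0.94) and Tomm40 (1.14) were not called, nor was Tomm20 when a mean of at least 1 FPKM was required (adjusted p = 0.0548). Tomm34 in two-cell embryos was also lost with the letter as a block (adjusted p = 0.0513). Quantile normalization gave 1 member higher and 3 lower in GV, 1 higher and 2 lower in zygote M, and 1 higher and 0 lower in two-cell M. Calls over all genes tested were then 877 (308 higher), 286 (92 higher) and 626 (370 higher). The median over the 22 members was -0.98 in two-cell embryos, against 0.28 over all genes tested, and -0.45 against -0.21 after quantile normalization.

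Members encode short proteins, with a median of 143.5 codons among the 22 tested against 374 among all genes tested with a transcript. Across the 22 members, log2 of the codon number and the log2 difference of polysomes to non-polysomes had a Pearson r of 0.52 and a Spearman rho of 0.56 in MII, with 0.38 and 0.36 in two-cell M. Over 6292 genes the corresponding values were 0.29 and 0.33 in MII and 0.13 and 0.15 in two-cell M. At the other stages r among the members was 0.06 in GV, -0.06 in zygotes, -0.22 in zygote M and 0.18 in two-cell embryos. Over all genes r was 0.076, 0.203, -0.025 and 0.212 at these stages. These are correlations across genes that share libraries, and genes are not independent replicates. By the polyadenylation element, the 6 tested members with the letters had a median log2 difference of 0.40 in MII against GV and the 16 without 1.26, with medians of 0.16 and 0.20 for all genes tested with and without them. From zygote to zygote M the medians were 0.87 and -0.60 for the members with and without the letters, with 4 of 6 and 4 of 16 positive, against -0.36 and -0.53 for all genes. In two-cell M against two-cell the medians were 1.22 and 1.21 for the members and -1.33 and -1.34 for all genes. Positive differences were found for 3 of 6 and 11 of 16 members in MII against GV, and for 4 of 6 and 11 of 16 in two-cell M. Over all genes with and without the letters, the positive shares were 53.4 and 55% in MII, 39.6 and 33.8% in zygote M, and 33.2 and 34.2% in two-cell M.

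Other genes of the import pathway were taken from a list of 27 partners, of which 16 were tested in the same fit. In MII against GV polysomes, 0 partners were called higher and 1 lower, where 3.36% of all genes tested were called higher and 2.75% lower. From zygote to zygote M the counts were 1 and 0, where 3.24% of all genes were called higher and 2.51% lower. From two-cell to two-cell M they were 0 and 4, where 28.1% of all genes tested were called lower and 8.13% higher. Romo1, a small inner membrane protein linked to TIM23, was the one called in every step, with log2 differences of -3.24 ± 0.48, 5.01 ± 0.48 and -1.61 ± 0.48. Its adjusted p was 3.28e-05, 2.23e-08 and 0.00954, opposite in sign to Timm17a in each step. The other partners called lower in two-cell M were Immp1l, a protease of the inner membrane (-4.88 ± 0.82, adjusted p = 4.43e-05), Cox18, an insertase (-4.87 ± 0.73, adjusted p = 9.41e-06), and Hspe1, the chaperonin cofactor (-1.48 ± 0.46, adjusted p = 0.0124). The median log2 difference of the 16 partners in that step was -1.11, near that of all genes, where the members had 1.21.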

How the data were processed

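RNA of the polysome and non-polysome pools was made into SMART-seq v4 libraries, and the authors trimmed the reads with Trim Galore 0.4.1, mapped them to GRCm38 with STAR 2.5.3a and deposited FPKM values per gene, processed in Partek. The study's methods name RefSeq genes, whereas the annotation columns of the table are in the style of Ensembl, and strand handling is not stated. Every deposited FPKM value carries an offset of 0.01. No counts were used. Depth was estimated from the steps between low values: 41.2 to 53.0% of them lay within 0.1 of a whole step in a library, where an even spread would give 20%.

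All 36 libraries with a column, 3 in each of 12 groups, entered 1 model in limma 3.58.1 (R 4.3.3) on log2 of the deposited FPKM, with no further pseudocount, group means as the design and a trend in the empirical Bayes prior. The test was run on genes whose geometric mean reached 0.1 FPKM (7967 genes, 22 of 26 members, 16 of 27 partners), and p-values were adjusted by Benjamini-Hochberg over all of them. Every adjusted p in the text is limma's. The authors' methods use another tool (Partek's GSA) with the same thresholds. In data simulated for MII against GV with 7967 genes, with planted changes of 4 on the log2 scale, 59 of 200 were found when each gene kept its own residual SD (median 1.63 over all genes, 1.35 over the members), with 3 false calls, and 200 of 200 at 0.25 times that SD. Figures and tables used Python 3.11.15, numpy 2.4.6, pandas 2.3.3 and matplotlib 3.10.9.

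The members, the partner list and the marker lists were chosen with earlier results of these data known. Every member is accounted for by role. Values in each library are given for the groups behind the calls in polysomes, and other genes are named only from the partner list. Alternatives were 0.1 or 1 added to each FPKM, no filter, a mean of at least 1 FPKM, quantile normalization, only the libraries compared, a block for the letter of the replicate or for the gradient, and leaving out each library. The design text describes biological triplicates.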

Additional observations from a re-analysis of the deposited data

Results flagged for a closer look

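A difference between effects under the same kind of contrast was called for 13 results, each by a test of the difference itself (limma, log2 differences). The changes of polysomes and non-polysomes differed for Tomm6 from zygote to zygote M (4.89, adjusted p = 0.0438, held in 3 of 12 fits that left out a library and lost with the gradient as a block, adjusted p = 0.0703) and for Tomm34 from two-cell to two-cell M (6.82, adjusted p = 0.000188, held in 12 of 12, lost with only the libraries compared). Each is 1 of 22 members, against 0.289% of all genes tested in the first contrast and 5.75% in the second.

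The differences between M-phase steps were added after the data had been seen. The step from GV to MII was above that from zygote to zygote M for Timm17a (4.99, adjusted p = 2.04e-05), Timm10 (4.97, adjusted p = 0.0143, held in 11 of 12) and Timm13 (4.32, adjusted p = 0.00196). It differed from the step from two-cell to two-cell M for Tomm20 (-3.99, adjusted p = 0.00537), Tomm6 (-3.92, adjusted p = 0.00966), Timm10 (-3.96, adjusted p = 0.0298, held in 7 of 12) and Timm21 (7.85, adjusted p = 0.0218, held in 10 of 12). The value of Timm21 depends on the 0.01 at which it is listed in all two-cell M polysome libraries and is no fold. The first mitotic step was below the second for Tomm20 (-4.54, adjusted p = 0.00206), Tomm7 (-3.64, adjusted p = 0.0341, held in 4 of 12), Timm17a (-4.59, adjusted p = 4.05e-05) and Timm10 (-8.93, adjusted p = 1.56e-05). The other differences between steps held in 12 of 12 such fits. In the order given, these contrasts between steps called 3, 4 and 4 of 22 members. Over all genes tested they called 9.51, 23.5 and 23.7%, so that the members were near or below that share in the last ones.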

How the results depend on the processing

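Of 527 values of called members under an alternative, 462 kept their direction and call, 65 kept the direction without the call and 0 reversed. No filter, a mean of at least 1 FPKM, only the libraries compared and the gradient block use the same group means. Under those settings the log2 difference cannot change, so the absence of reversals there was fixed in advance. Of 32 calls in polysomes, 20 held in every alternative and every fit with a library left out. With 0.1 added to each FPKM, 5 members were called in MII against GV in place of 3. With 1 added the counts were 9 in MII against GV, 2 in GV against zygote (main 1), 4 in GV against two-cell (main 2) and 16 between fractions (main 9). Without a filter on low values they were 5 in two-cell M against two-cell (main 8) and 4 between fractions. That setting tested 23125 genes and called 3616 of them in two-cell M against two-cell (main 2890 of 7967). Quantile normalization gave 7 in MII against GV and 2 in GV against zygote. Over all 7967 genes tested, 0.1 added gave 1066 calls in MII against GV (main 487). With 1 added, 1604 genes passed in that step, 1304 in GV against zygote (main 447) and 1806 in GV against two-cell (main 1331). Between fractions, calls over all genes per stage ran from 155 to 1451 without a filter and from 124 to 1252 with 1 added. They ran from 19 to 1605 with only the libraries compared (main 60 to 1280). With only the libraries compared, 9 members were called in MII against GV, 6 in zygote M against zygote (main 3), 6 in GV against zygote, 13 in MII against zygote M (main 6) and 16 between fractions. The same setting called 2162, 2635, 2466 and 3235 of all genes tested in those comparisons of stages (main 487, 458, 447 and 984). Of the calls of the fit to all libraries, that setting kept 27 of 32 in polysomes, 9 of 20 in non-polysomes, 1 of 9 between fractions and 0 of 2 for a difference between fractions. The cause was not tested.

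When 1 library was left out, the count ranged from 2 to 2 in MII against GV and in zygote M against zygote, 4 to 9 in two-cell M against two-cell, 0 to 1 in GV against zygote, 1 to 2 in GV against two-cell, 4 to 5 in MII against zygote M, 7 to 9 in MII against two-cell M, 6 to 12 between fractions, 17 to 21 in non-polysomes and 1 to 4 for a difference between fractions. Libraries of different stages with the same letter shared only a letter (mean correlation of their deviations 0.02 in polysomes and 0.018 in non-polysomes). The fractions of one stage and letter share a gradient, and there the mean was 0.076 (-0.006 to 0.167). The main fit did not pair them. With the letter as a block, or the gradient as a block, 1 member was called for a difference between fractions in place of 2. Either block gave 8 calls between fractions, of which the gradient shared 6 with the main 9. The letter gave 2 from zygote to zygote M and 7 from two-cell to two-cell M. Values under about 0.1 FPKM rest on few fragments, which limits Tomm20, Tomm5, Timm10 and Tomm34 where they are low.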
